A study of Mus musculus with 5 samples.

Results

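Genes of cholesterol and fatty acid synthesis, with a few of sterol transport, were examined in 32D cells carrying 5 different FLT3-ITD constructs. Most of these genes answer to the sterol regulatory element-binding proteins (SREBPs). The 32 genes were listed by name as SREBP pathway genes, with earlier results of these data known. They fall into 5 genes of the SREBP machinery, 16 enzymes of the mevalonate and sterol pathway, 3 genes of sterol transport and 8 genes of fatty acid synthesis. Of the 32, 31 had a probe set among the 18193 genes measured, and 29 lay above the filter on low values that 9621 genes passed. Acat2 had no probe set here, and the sterol exporter gene Abca1 and the desaturase gene Scd1 lay below the filter on every array.

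32D is a mouse myeloid progenitor line that normally needs interleukin-3, and FLT3 is a receptor tyrosine kinase that an internal tandem duplication (ITD) renders active without ligand. The 5 groups were 32D cells stably transduced by retrovirus with FLT3 ITD78, FLT3 ITD598, FLT3 ITD602, FLT3 ITD611 or FLT3 ITD613. All were starved for 3 h and then given a tyrosine kinase inhibitor (TKI), which the labels do not name, for 1 h, so every value below is from starved and inhibitor-treated cells. The labels state neither what the construct numbers mean nor whether a line was a clone or a pool. Each construct was measured once, on 1 Affymetrix mouse array, and the title of the ITD602 array carries another date-like string than the other 4. An untransduced or untreated array was not analysed here. No difference could be tested, and all comparisons below are descriptions by fixed rules of size.

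Cells make cholesterol from acetyl-CoA through mevalonate, isoprenoid units, squalene and lanosterol, and they make long-chain fatty acids from the same acetyl-CoA through malonyl-CoA. SREBPs are membrane-bound transcription factors that SCAP escorts out of the endoplasmic reticulum when sterols are scarce, and INSIG proteins hold SCAP back when sterols are plentiful. SREBP-2 is known mainly for the cholesterol genes and SREBP-1 for the fatty acid genes, and growing cells need both arms to build membranes.

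SREBPs act on promoters together with the factors NF-Y and Sp1. The bases just before the start of 6 members are shown as examples of members that went different ways. Whether these bases relate to the array values was not tested. Hmgcs1, Cyp51 and Fasn were low on ITD613, Insig1 was high on ITD598, Insig2 was high on ITD613, and Idi1 was not low on ITD613. Each line gives the 200 bases before the annotated start, read 5′ to 3′ along the gene, from RefSeq (GRCm38.p6). For Insig2, which has several annotated starts, it is the most upstream one. Capitals mark matches, on either strand, to TCACNCCAC (a sterol response element), CCAAT (bound by NF-Y), CACGTG (an E-box) and GGGCGG (bound by Sp1).
Hmgcs1, chr13:119690151-119690350, strand plus: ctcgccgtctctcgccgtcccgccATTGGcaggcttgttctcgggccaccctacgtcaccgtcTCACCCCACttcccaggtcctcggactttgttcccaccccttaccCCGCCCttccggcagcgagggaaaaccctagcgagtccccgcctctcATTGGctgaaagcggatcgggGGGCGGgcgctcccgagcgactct
Cyp51, chr5:4104698-4104897, strand minus: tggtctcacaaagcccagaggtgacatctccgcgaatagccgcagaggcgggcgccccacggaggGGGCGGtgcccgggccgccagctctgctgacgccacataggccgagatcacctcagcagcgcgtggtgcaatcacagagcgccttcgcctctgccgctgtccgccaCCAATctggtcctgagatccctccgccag
Fasn, chr11:120824548-120824747, strand minus: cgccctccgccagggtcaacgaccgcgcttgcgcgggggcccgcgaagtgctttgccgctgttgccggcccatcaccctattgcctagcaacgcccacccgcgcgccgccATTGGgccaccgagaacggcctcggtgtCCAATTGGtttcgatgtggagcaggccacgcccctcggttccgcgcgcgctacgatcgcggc
Insig1, chr5:28071212-28071411, strand plus: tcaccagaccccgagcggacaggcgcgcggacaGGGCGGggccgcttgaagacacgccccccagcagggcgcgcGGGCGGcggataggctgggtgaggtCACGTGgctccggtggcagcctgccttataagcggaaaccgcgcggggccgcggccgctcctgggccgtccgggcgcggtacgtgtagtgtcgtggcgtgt
Idi1, chr13:8885406-8885605, strand plus: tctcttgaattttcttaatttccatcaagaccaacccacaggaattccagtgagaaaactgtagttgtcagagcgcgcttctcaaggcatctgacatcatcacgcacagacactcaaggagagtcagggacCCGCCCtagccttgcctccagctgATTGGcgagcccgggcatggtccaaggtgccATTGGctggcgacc
Insig2, chr1:121332590-121332789, strand minus: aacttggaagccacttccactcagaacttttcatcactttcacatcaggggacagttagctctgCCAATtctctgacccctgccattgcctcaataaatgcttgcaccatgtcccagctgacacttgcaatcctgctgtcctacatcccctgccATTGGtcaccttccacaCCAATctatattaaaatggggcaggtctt

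Promoter windows from 250 bases before to 50 after a start were at hand for 24 members, with 32 windows in all. The sterol response element letters occurred in 1 of the 32 member windows (3.12%), that of Hmgcs1, where the match begins at position -137 from the start, against 1.24% of all 32851 windows. CCAAT occurred in 59.4% of the member windows and 37.4% of all windows, GGGCGG in 75.0% and 35.7%, and CACGTG in 21.9% and 7.15%. The Acaca and Elovl6 windows held none of the 4 motifs. In Fasn a CCAAT and its reverse complement overlap. These matches describe letters in a window and are not binding sites, and windows of 1 gene can overlap.

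The array values are log2 values of 1 probe set per gene, the one with the highest mean over the 5 arrays, so a difference of 1 is 2-fold. Levels of different genes cannot be set against each other on this scale, and only the same gene is compared between arrays. A gene was called higher or lower on an array where it lay at least 1.5-fold (0.585 log2) from the mean of the other 4. All 29 members stayed above 3.74, the top of a low range in which many probe sets share 1 value, on all 5 arrays. Each SD given describes how far the remaining 4 constructs spread among themselves (n = 4 arrays), since there were no replicates.

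The members differed between the arrays mainly through ITD613, where genes of both arms were low. By the 1.5-fold rule 8 of the 29 members were lower on ITD613, which is 27.6%, against 7.38% of all 9621 genes, and 1 was at least 1.5-fold above, against 9.73%. ITD613 held the lowest of the 5 values for 19 of the 29, or 65.5%, against 29.4% of all genes, and the highest for 4, against 35.7%. Over the 7264 genes whose 5 values all lay above 3.74, 6.69% were 1.5-fold lower on ITD613 and 30.1% were lowest there. With each array centred on its median over genes, 11 of the 29 members were 1.5-fold lower on ITD613. The centring also turned the balance over all genes, from 936 higher and 710 lower to 752 higher and 889 lower (9.24% of all genes).

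**Figure D1:**
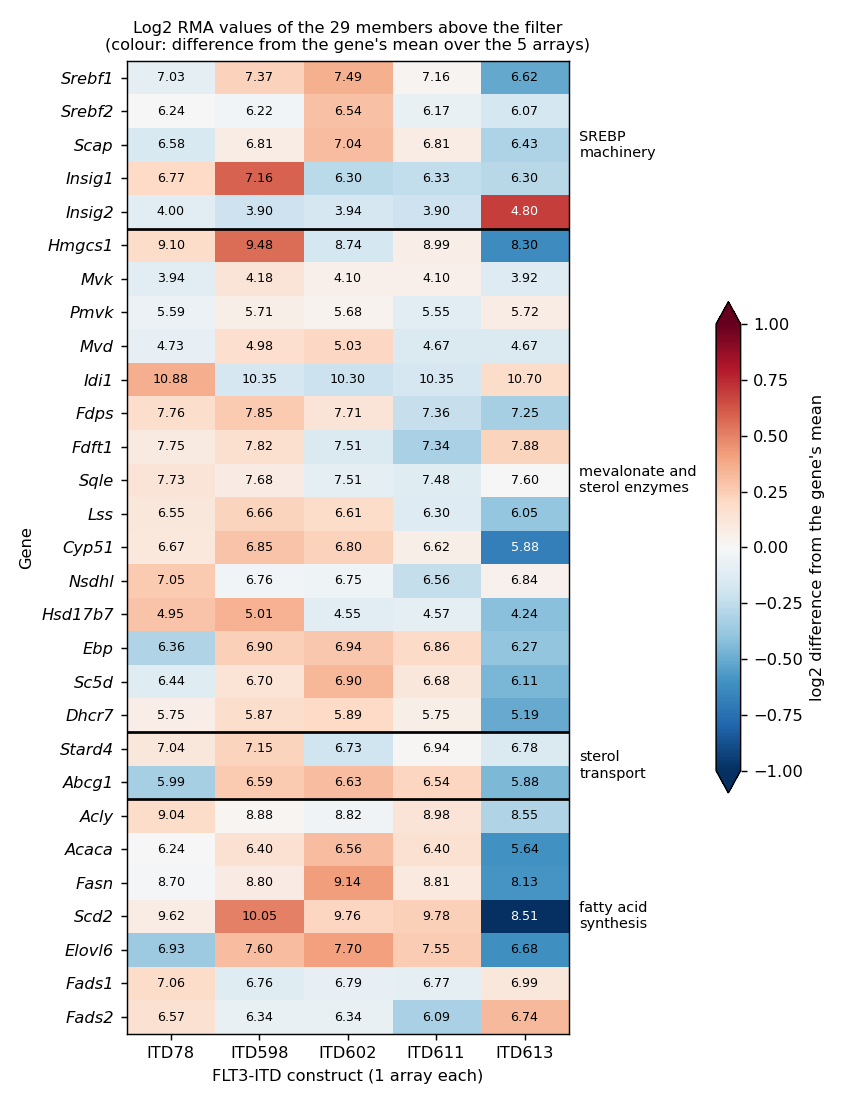
Log2 RMA values (numbers) of the 29 members above the filter, 1 row per gene and 1 column per construct, each with 1 array. The colour is the log2 difference from that gene's mean over the 5 arrays, and the darkest blue, in the ITD613 column, is Scd2 at 8.51.

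Of the SREBP machinery, the transcription factor genes, Scap and Insig1 were lowest on ITD613 with the probe sets used. Insig1 was so by only -0.005, and Insig2 was highest there. Srebf1, which encodes SREBP-1, read 7.03 on ITD78, 7.37 on ITD598, 7.49 on ITD602, 7.16 on ITD611 and 6.62 on ITD613. ITD613 was thus below the other 4 arrays, by -0.41 from the nearest, and by -0.64 from their mean of 7.26 ± 0.20 (SD, n = 4 arrays). Without the ITD602 array that difference was -0.56, short of 1.5-fold. Srebf2, which encodes SREBP-2, read 6.24, 6.22, 6.54, 6.17 and 6.07 in the same order of arrays. Its range was 0.47, and ITD613 lay only -0.10 from the next array. The second Srebf2 probe set was lowest on ITD598 and ITD611 (4.68 on each), with 4.70 on ITD613. Scap, the sterol-sensing escort of the SREBPs, read 6.58, 6.81, 7.04, 6.81 and 6.43, so that ITD602 was highest and ITD613 and ITD78 were lowest. Srebf1, Srebf2 and Scap were all highest on ITD602, as were 29.5% of all genes, and none was 1.5-fold above the mean of the other arrays there.

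Insig1, itself an SREBP target whose product retains SCAP, read 6.77 on ITD78, 7.16 on ITD598, 6.30 on ITD602, 6.33 on ITD611 and 6.30 on ITD613. ITD598 stood highest, 0.74 above the mean of the other arrays, ITD78 was next, and ITD602, ITD611 and ITD613 were nearly level. Insig2, a related retention factor known to be controlled separately from Insig1, read 4.0, 3.90, 3.94, 3.90 and 4.80. It was the only member at least 1.5-fold higher on ITD613, at 1.82 times the mean of the other 4 arrays (3.93 ± 0.05), which did not overlap with it. Each of its 3 probe sets showed this, with differences from 0.87 to 1.06. The levels are modest, and both of the other Insig2 probe sets reach into the low range.

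**Figure D2:**
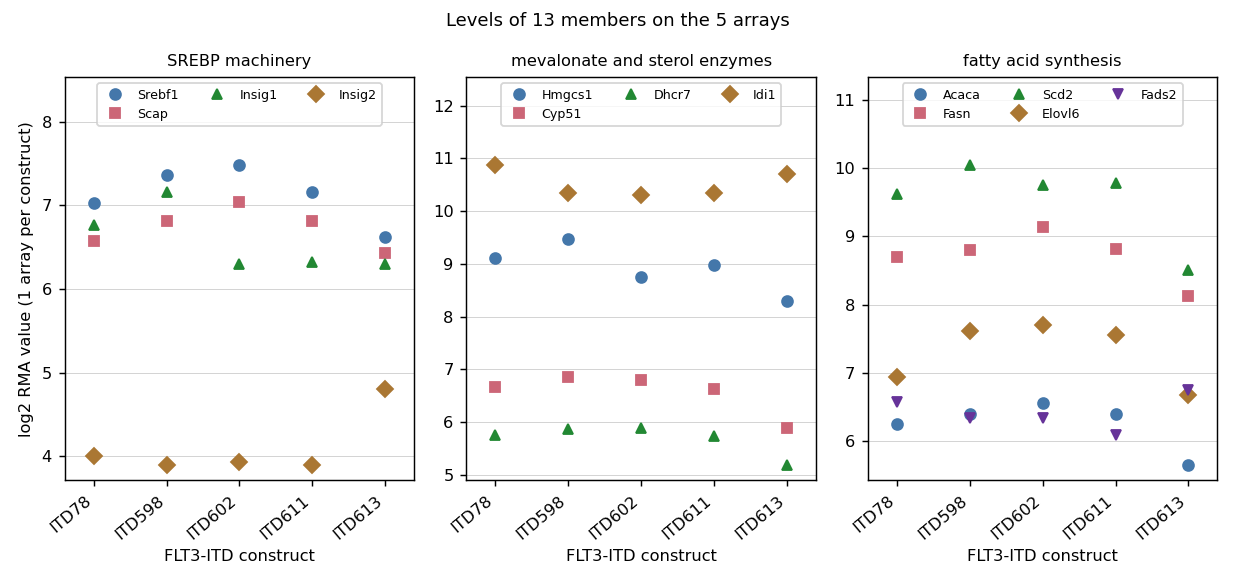
Log2 RMA values (vertical axes, which do not start at 0) of 13 members on the 5 arrays, 1 point per array, in 3 panels for the SREBP machinery, sterol enzymes and fatty acid synthesis. Only the same symbol may be compared across constructs. Scd2 drops to 8.51 on ITD613 while Insig2 reaches 4.80 there.

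In the mevalonate and sterol pathway, 3 of the 15 measured enzymes were at least 1.5-fold lower on ITD613 (20.0%, against 7.38% of all genes). None was higher (against 9.73%). The median of the 15 was -0.42 there, with 11 below the mean of the other arrays and 4 above, while the median over all 9621 genes was 0.015. With the mean of each gene's probe sets in place of 1 probe set the arm's median was -0.13, and with the _x_at and _s_at probe sets, which can match several transcripts, left out it was -0.19. The 3 enzymes were Hmgcs1, Cyp51 and Dhcr7, which lie at the start, the middle and the end of the route.

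Hmgcs1, the cytosolic HMG-CoA synthase that commits acetoacetyl-CoA to mevalonate, read 9.10 on ITD78, 9.48 on ITD598, 8.74 on ITD602, 8.99 on ITD611 and 8.30 on ITD613. ITD598 was the highest and ITD613 the lowest, a span of 2.27-fold, the widest of the sterol enzymes. Its difference on ITD613 was -0.78, and the 4 probe sets of Hmgcs1 above the filter gave differences from -0.81 to -0.78. On ITD598 it stood 0.70 above the other arrays, but only 0.53 without the ITD613 array, 0.58 with the mean of its probe sets and 0.55 with its _x_at probe set left out, each short of 1.5-fold.

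Cyp51, the lanosterol demethylase, read 6.67, 6.85, 6.80, 6.62 and 5.88 on ITD78, ITD598, ITD602, ITD611 and ITD613. The first 4 arrays were close together (6.74 ± 0.11) and ITD613 was -0.74 from the nearest of them. Its next brightest probe set gave -0.44 and the dimmest, in the low range, -0.09, and the mean of the 3 gave -0.46, short of 1.5-fold. Dhcr7, the reductase of the last step to cholesterol, read 5.75, 5.87, 5.89, 5.75 and 5.19. The other 4 arrays again lay close together (5.82 ± 0.08), and ITD613 was -0.56 from the nearest.

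With the probe set used, further enzymes were lowest on ITD613, by less than 1.5-fold from the mean of the others. Lss, the lanosterol synthase, read 6.55, 6.66, 6.61, 6.30 and 6.05 in the same order. In its second probe set above the filter, ITD611 (4.18) and ITD602 (4.27) were lower than ITD613 (4.35). Hsd17b7, a sterol ketoreductase, read 4.95, 5.01, 4.55, 4.57 and 4.24, so that ITD78 and ITD598 were high and ITD613 low. Fdps, the farnesyl diphosphate synthase, read 7.76, 7.85, 7.71, 7.36 and 7.25, so that ITD611 and ITD613 were the low arrays. Ebp, the sterol isomerase, read 6.36, 6.90, 6.94, 6.86 and 6.27, and here ITD78 joined ITD613 below the other arrays. Sc5d, the sterol desaturase, read 6.44, 6.70, 6.90, 6.68 and 6.11. A second Sc5d probe set went the other way on ITD613 (3.66) and was lowest on ITD78 (3.02). That probe set reached into the low range on most arrays, so that its difference cannot be sized.

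Idi1, Fdft1, Sqle and Nsdhl were not lowest on ITD613. Idi1, which interconverts the isoprenoid building blocks, read 10.88 on ITD78, 10.35 on ITD598, 10.30 on ITD602, 10.35 on ITD611 and 10.70 on ITD613, so that ITD78 and ITD613 were the high arrays. Fdft1, the squalene synthase, read 7.75, 7.82, 7.51, 7.34 and 7.88, with ITD611 lowest and ITD613 highest. Its second probe set above the filter was also lowest on ITD611, but highest on ITD598 (5.85, against 5.72 on ITD613). Sqle, the squalene epoxidase and a control point of the pathway, read 7.73, 7.68, 7.51, 7.48 and 7.60, a range of only 0.25. Nsdhl, a sterol demethylation enzyme, read 7.05, 6.76, 6.75, 6.56 and 6.84. The mevalonate kinases and decarboxylase Mvk, Pmvk and Mvd ranged over only 0.26, 0.18 and 0.36. With the probe sets used, Mvk was lowest on ITD613, and Mvd shared its lowest value between ITD611 and ITD613. Pmvk was highest on ITD613, and none was 1.5-fold apart on any array. The second Mvk probe set, in the low range on every array, was lowest on ITD78 (3.30, against 3.47 on ITD613). The second Mvd probe set was also lowest on ITD78 (3.74, against 3.77 on ITD613).

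**Figure D3:**
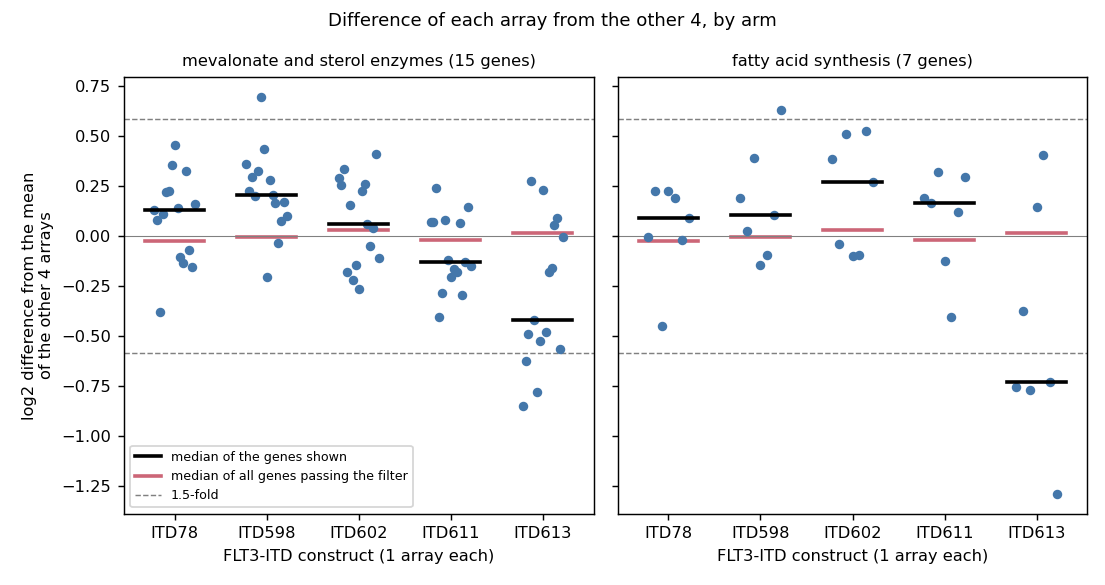
Log2 difference of each array from the mean of the other 4 (vertical axis) for the 15 sterol enzymes (left) and 7 fatty acid genes (right), 1 point per gene, with the median of these genes (black), the median of all 9621 genes (red) and 1.5-fold lines (dashed). On ITD613 the black bars lie at -0.42 and -0.73.

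In fatty acid synthesis the low values on ITD613 were larger and covered the central steps. Of the 7 measured genes 4 were at least 1.5-fold lower there (57.1%, against 7.38% of all genes), namely Acaca, Fasn, Scd2 and Elovl6. The median was -0.73. That median was -0.41 with the mean of probe sets and -0.56 with no filter on low values, which brings Scd1 back in. Fads1 and Fads2 lay above the mean of the other arrays.

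Acaca, the acetyl-CoA carboxylase that makes malonyl-CoA, read 6.24 on ITD78, 6.40 on ITD598, 6.56 on ITD602, 6.40 on ITD611 and 5.64 on ITD613. ITD613 was -0.60 from the nearest array and -0.76 from the mean of the other 4 (6.40 ± 0.13). Its other probe set lay in the low range on every array, and the mean of both gave -0.41. Fasn, the fatty acid synthase, read 8.70, 8.80, 9.14, 8.81 and 8.13, and ITD602 was highest and ITD613 lowest, a span of 2.01-fold. ITD613 was -0.73 from the mean of the other 4 (8.86 ± 0.19).

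Scd2, a desaturase that makes monounsaturated fatty acids and the only one of the Scd pair above the filter, gave the widest difference of all members. It read 9.62 on ITD78, 10.05 on ITD598, 9.76 on ITD602, 9.78 on ITD611 and 8.51 on ITD613. The other 4 arrays lay at 9.80 ± 0.18, ITD613 was -1.11 from the nearest and 2.45-fold below their mean, and Scd2 was the only member more than 2-fold from that mean on any array. Both of the other Scd2 probe sets were also lowest on ITD613, but one reached into the low range there and the other lay in it on every array, so that their differences cannot be sized. Scd1 read between 1.04 and 1.43 on the 5 arrays, in the low range. On ITD598 Scd2 stood 0.63 above the other arrays, but 0.33 without the ITD613 array, 0.36 against the median of the others and 0.28 with the mean of its probe sets.

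Elovl6, the elongase that extends palmitate, read 6.93, 7.60, 7.70, 7.55 and 6.68 on ITD78, ITD598, ITD602, ITD611 and ITD613. ITD598, ITD602 and ITD611 were close together, and both ITD78 and ITD613 lay below them, with ITD613 only -0.26 from ITD78. Acly, which supplies cytosolic acetyl-CoA from citrate, read 9.04, 8.88, 8.82, 8.98 and 8.55, lowest on ITD613 by -0.27 with the _x_at probe set used. Both other Acly probe sets above the filter were lowest on ITD598, at 7.82 and 4.37, against 7.92 and 4.59 on ITD613. Fads1 and Fads2, the desaturases of polyunsaturated fatty acids, lay above the mean of the other arrays on ITD613. Fads2 read 6.57, 6.34, 6.34, 6.09 and 6.74, highest on ITD613 and lowest on ITD611, and each of its 3 probe sets was highest on ITD613 (0.18 to 0.40 above the mean of the others). Fads1 read 7.06, 6.76, 6.79, 6.77 and 6.99, highest on ITD78, and its second probe set lay in the low range on every array.

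In sterol transport, Abcg1, an exporter of cholesterol and other sterols driven by oxysterol-sensing receptors rather than by SREBP, read 5.99, 6.59, 6.63, 6.54 and 5.88. ITD78 and ITD613 were again the low arrays, with -0.56 on ITD613 and -0.42 on ITD78. Its second probe set gave -1.02 on ITD613, where it reached into the low range. Stard4, a cytosolic sterol carrier, ranged over 0.42, from 6.73 on ITD602 to 7.15 on ITD598. Abca1 read 1.09 to 1.17 on the 5 arrays.

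**Figure D4:**
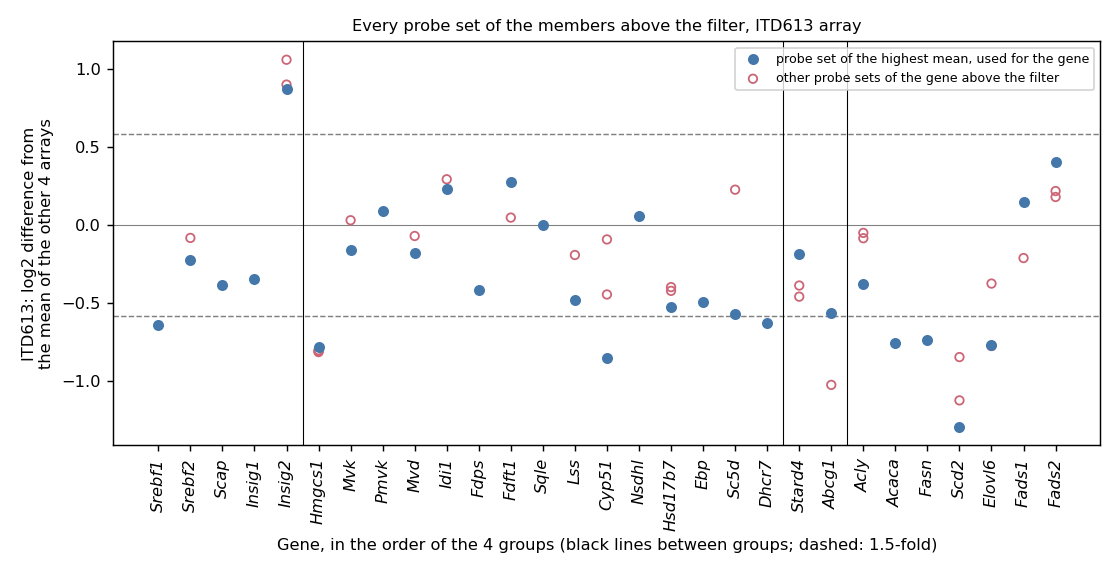
Log2 difference of the ITD613 array from the mean of the other 4 (vertical axis) for every probe set of the 29 members above the filter, with the probe set used for the gene filled and the others open. Insig2 and Scd2 have 3 probe sets each beyond the dashed 1.5-fold lines, and Sc5d, Mvk and Fads1 have probe sets on both sides of 0. Of the 57 points 12 are from probe sets that reach into the low range, where a difference cannot be sized.

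Counted by probe set, 57 probe sets of the 29 members passed the filter, and 12 of these reached into the low range. On ITD613 42 of the 57 were lower than the mean of the other 4 arrays, against 49.6% of the 16694 probe sets with 1 gene symbol that passed. By at least 1.5-fold 15 were lower, against 8.49%, and 3 were higher, against 9.47%. The 3 were those of Insig2. Set against each array by itself, ITD613 was at least 1.5-fold lower in 5 of the 29 members against ITD78 (4.27% of all genes), 15 against ITD598 (8.08%), 11 against ITD602 (11.2%) and 7 against ITD611 (8.13%). These 4 comparisons share the ITD613 array. The median differences of the 29 members were -0.26, -0.59, -0.45 and -0.25 in that order. Below every other array by 1.5-fold were 3 of the 29, Cyp51, Acaca and Scd2, against 3.01% of all genes.

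The other 4 arrays differed less. No member was 1.5-fold higher or lower on ITD78 (0 of 29 in each direction, against 1.20% and 1.91% of all genes). Without the ITD613 array 2 members were 1.5-fold lower on ITD78, and the fatty acid median on ITD78 went from 0.090 to -0.21. For 10 members, or 34.5%, ITD613 was lowest and ITD78 second lowest, against 18.2% of all genes. These were Srebf1, Scap, Mvk, Ebp, Sc5d, Abcg1, Acaca, Fasn, Scd2 and Elovl6. Among those lowest on ITD613, however, ITD78 was second lowest for 10 of 19 members and for 1750 of 2826 genes. Once ITD613 was lowest, ITD78 thus came second no more often among the members than among all genes. ITD78 held the highest value for 5 members (against 11.3% of all genes), namely Idi1, Sqle, Nsdhl, Acly and Fads1, and the lowest for 0 (against 17.5%).

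On ITD598, 3 members were 1.5-fold higher (10.3%, against 1.27% of all genes), Insig1, Hmgcs1 and Scd2, and 0 were lower (against 0.707%). Without the ITD613 array only Insig1 remained so. The sterol enzymes had their highest median on ITD598 (0.21, and 0.16 without the ITD613 array). There 13 of 15 lay above the mean of the other arrays, against 4666 of all 9621 genes. ITD598 held the highest value for 9 members (31.0%, against 10.7%) and the lowest for 1 (against 12.4%).

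On ITD602 no member was 1.5-fold higher (against 2.96% of all genes) or lower (against 2.65%), and 2 were higher when either the ITD598 or the ITD611 array was left out. It held the highest value for 11 members (37.9%, against 29.5%), among them Srebf1, Srebf2, Scap, Acaca, Fasn and Elovl6, and the lowest for 2 (against 17.3%). The fatty acid median on ITD602 was 0.27, but 0.0074 without the ITD613 array. On ITD611 no member was 1.5-fold higher (against 1.01%) or lower (against 1.62%), ITD611 held the highest value for 0 members (against 8.33%) and the lowest for 6 (20.7%, against 17.8%), and the sterol median was -0.13. The fatty acid medians of 0.10 on ITD598 and 0.16 on ITD611 were -0.0004 and -0.026 without the ITD613 array. Over all 5 arrays 18 of the 29 members ranged at least 1.5-fold (62.1%, against 31.7% of all genes).

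Further genes of the pathway, listed apart from the members, were counted by the same rule. Of 15 related cholesterol genes 10 were represented on the array and 9 of these lay above the filter. On ITD613 2 of the 9 were 1.5-fold lower (22.2%, against 7.38% of all genes) and 0 higher (against 9.73%). Msmo1, the sterol methyl oxidase that acts after Cyp51, read 7.40, 7.65, 7.35, 7.18 and 6.77 on ITD78, ITD598, ITD602, ITD611 and ITD613. Tm7sf2, a sterol reductase and the other of the 2, read 2.87, 3.30, 3.40, 2.96 and 2.04, all in the low range, so its difference cannot be sized. The median of the 9 on ITD613 was 0.046, beside 0.015 for all genes.

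Of 20 related fatty acid genes 19 were represented and 15 lay above the filter. On ITD613 4 of them were 1.5-fold lower (26.7%, against 7.38% of all genes) and 1 was higher (6.67%, against 9.73%). The median was -0.27. Hsd17b12, a ketoreductase of fatty acid elongation, read 8.62, 8.90, 8.76, 8.90 and 8.04. Acsl3 and Acsl4, which activate fatty acids with CoA, read 5.43 and 6.20 on ITD613, with 6.07 to 6.29 and 6.84 to 7.38 on the other arrays. Acacb, a second acetyl-CoA carboxylase, counted among the 4, read 3.57, 3.57, 3.79, 3.57 and 2.75, in the low range on all arrays but ITD602, so its difference cannot be sized. Acss2, which makes acetyl-CoA from acetate, was the one higher, at 4.59, 4.33, 3.98, 4.03 and 5.07. Elovl5 and Hacd3, both of the elongation cycle, read 8.42, 8.75, 8.97, 8.72 and 8.21 and 7.80, 8.36, 8.66, 8.56 and 7.94, lower on ITD78 and ITD613 than on the other 3 arrays.

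Most of the myeloid markers above the filter were also low on ITD613. Unlike the members, some were also called on ITD78, ITD602 and ITD611. Of 11 myeloid progenitor markers 7 passed the filter. Of these, 5 were 1.5-fold lower on ITD613 (against 7.38% of all genes) and 4 on ITD78 (against 1.91%). Myb alone was higher on ITD613 (against 9.73%), while 6 were higher on ITD602 (against 2.96%) and 3 on ITD598 (against 1.27%). On ITD611 2 were higher (against 1.01%) and 1, Mpo, was lower (against 1.62%). Mpo went its own way, at 4.52 on ITD78, 6.55 on ITD598, 6.21 on ITD602, 5.0 on ITD611 and 5.18 on ITD613. The log2 values of the 11 added up to 50.5 on ITD613 and 52.4 on ITD78, and 57.5 to 59.8 on the other 3 arrays. That sum includes Myb and the markers below the filter, and it is not a level of expression. Ptprc, the pan-leukocyte antigen CD45, read 8.31, 8.93, 9.0, 8.96 and 7.41. Csf2rb, a chain of the interleukin-3 receptor, read 7.0, 7.96, 8.39, 8.54 and 6.71, and Ctsg, a granule protease, read 7.42, 9.09, 9.17, 8.77 and 6.24. The genes Kit, Cd34, Cebpa and Elane were below the filter on all arrays. The fibroblast, adipocyte and hepatocyte, and lymphoid markers with a probe set were all below the filter on every array, as were the epithelial markers except Epcam (2.87 to 3.29, in the low range). What part the myeloid difference has in the lipid gene values was not tested. In a bulk RNA sample, fewer cells with a transcript and less transcript per cell cannot be told apart.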

How the data were processed

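Total RNA of 5 transduced 32D lines was measured on Affymetrix mouse expression arrays, 1 per construct, per the labels. The authors deposited RMA values, which are on a log2 scale; RMA is named in the submitters' processing notes. The RMA software and version are not given in the sources used here, and the log base was read off their span (-0.07 to 13.45). Array medians ran from 1.99 to 2.06.

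Of 45101 probe sets, 34945 had 1 gene symbol, 932 had several, 9160 were unlisted in the platform annotation and stayed unnamed, and 64 were controls, left out. The probe set with the highest mean stood for a gene, and genes passed where their highest value reached the 60th percentile (2.75). Gene IDs of all 31 measured members matched RefSeq (GRCm38.p6), and 0 were renamed. Differences, medians and counts were computed with pandas 2.3.3 in Python 3.11.15. With 1 array per construct no test was made. The call rule was tested on simulated data. Members named with all values were the SREBP machinery, members ranging 1.5-fold, the steps Hmgcs1, Sqle, Acaca and Fasn, and paralog pairs. Idi1, Fdft1, Nsdhl and Acly, outside this rule, were added after their values were seen. The members and lists were chosen with earlier results of these data known. Alternatives covered the probe set choice, filter, low values, reference, scaling and leaving out each array. Sequences came from a RefSeq promoter table.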

Additional observations from a re-analysis of the deposited data

How the results depend on the processing

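Of the 12 calls of a member on an array, each kept its sign under every alternative that gave a value for it, and those that fell short of 1.5-fold are given above. The 8 members lower on ITD613 were 7 to 11 under the alternatives other than a 2-fold call, which left 1. The 2-fold call left 0 higher on ITD598 and 0 higher on ITD613. With the mean of probe sets 1 member was higher on ITD598 and 1 lower on ITD602, the fatty acid medians were -0.41 on ITD613 and -0.019 on ITD78, and the sterol median on ITD613 was -0.13. With the _x_at and _s_at probe sets left out the sterol medians were -0.19 on ITD613 and -0.022 on ITD611. Against the median of the other arrays the fatty acid medians were 0.062 on ITD602 and -0.11 on ITD78, where 1 member was lower. With low values raised, or with no filter, they were -0.56 on ITD613 in both cases and 0.14 and 0.13 on ITD602. Leaving out 1 array gave fatty acid medians of -0.0004 to 0.25 on ITD598, 0.0074 to 0.46 on ITD602, -0.026 to 0.27 on ITD611 and -0.21 to 0.18 on ITD78, and sterol medians of 0.022 to 0.20 on ITD78. It gave 1 to 3 members higher on ITD598, 0 to 2 higher on ITD602 and 0 to 2 lower on ITD78. The lowest medians and counts came without the ITD613 array, except for the count of members lower on ITD78, which was highest without it, and the count higher on ITD602, which was 0 without ITD613 or ITD78. A value with no test was taken as moved past 0.1 log2. No paired analysis was possible because each construct has 1 array. With 1 array per construct, array and construct cannot be told apart.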

Other observations

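On the ITD602 array some probe sets of the same member disagreed. Idi1 read 10.30 there with the probe set used, close to 10.35 on ITD598 and ITD611, but its second probe set read 8.65 against 9.39 to 9.92 on the other 4 arrays. Cyp51 read 6.80 with the probe set used, second to ITD598, and 5.56 with its second probe set, where only ITD613 (5.46) was lower. Hmgcs1 read 9.01 with one probe set, second to ITD598, and 8.16 with another, where only ITD613 (7.81) was lower. Over 2780 genes with at least 2 probe sets above the low range, the differences of the 2 brightest probe sets disagreed by a median of 0.17 log2 on ITD602, 0.16 on ITD613, 0.12 on ITD78 and 0.10 on both ITD598 and ITD611. They disagreed by at least 1.5-fold in 4.86% of the genes on ITD602 and 8.20% on ITD613, against 1.33%, 0.360% and 0.935% on ITD78, ITD598 and ITD611. Of 11 members in this comparison only Idi1 and Cyp51 disagreed by that much, both on ITD602. This comparison was chosen after the values were seen, and what sets the disagreement was not tested. The title of the ITD602 array carries another date-like string, while that of the ITD613 array, with the larger share of disagreeing genes, does not.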
